A study of Mus musculus with 18 samples.

Results

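*Cubn*, *Tshz1*, *Akap5*, *Cbx5*, *Nucks1* and *Cym* are 6 of the 23420 genes listed in each table of bulk RNA-Seq from mouse embryonic lungs. They were chosen by their normalized counts in 1 experiment, where the 3 *Vangl1/2* mutant libraries lay apart from all 3 control libraries, also from 1 control library that otherwise resembled the mutants. *Cubn*, *Tshz1*, *Akap5*, *Cbx5* and *Nucks1* were higher in these mutants and *Cym* was lower. That contrast chose the genes, so their values in it are given as a description with no test. The *Wnt5a* experiments were not used to choose them, and the genes were tested there.

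The study asked how noncanonical *Wnt* signaling sets where lung branches form and where they point. Whole lungs were sequenced in 3 experiments, each with 3 mutant and 3 control libraries, 18 in all. At E12.5 (embryonic day by days post coitus), mutants labelled Vangl1-/-; Vangl2-/- were compared with controls labelled Vangl1-/-, so both groups carried the *Vangl1* mutation and the comparison is one of *Vangl2*. The *Vangl1* allele is a gene trap, and *Vangl2* was deleted in the whole embryo by Sox2-Cre; the labels do not say which Cre the controls carried. At E12.5, Wnt5a f/f; Dermo1Cre lungs, with *Wnt5a* deleted in the mesenchyme, were compared with Wnt5a f/+; Dermo1Cre lungs. At E13.5, Wnt5a f/f; Sox9Cre lungs, with *Wnt5a* deleted in the epithelium, were compared with Wnt5a f/+; Sox9Cre lungs. Sox9-Cre becomes active only after branching has begun. The *Wnt5a* controls thus carried the Cre and 1 floxed allele, and the Cre line and the stage cannot be told apart. The study calls its repeats biological in general. How many embryos stand behind an RNA-Seq library is not given in the sources used here, so p-values measure the spread between these libraries, whatever its source.

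VANGL1 and VANGL2 are membrane proteins at the core of planar cell polarity, the system that aligns cells within a sheet, and WNT5A is a ligand that acts through it. The 6 genes belong to no common pathway. Cubilin, the product of *Cubn*, is a very large endocytic receptor that takes up vitamin B12 bound to intrinsic factor, and many other ligands, in gut, kidney and yolk sac. AKAP5 holds protein kinase A, protein kinase C and calcineurin at the plasma membrane. The products of *Cbx5*, *Nucks1* and *Tshz1* work in the nucleus, as the heterochromatin protein HP1-alpha, as a phosphoprotein of chromatin and DNA repair, and as a zinc finger homeobox repressor, respectively. Chymosin, the product of *Cym*, is a secreted aspartic protease known from the stomach of newborn mammals.

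Between 19066208 and 19814346 reads lay on genes in the *Vangl1/2* libraries, 15945393 to 16102180 in the Dermo1Cre libraries and 16198295 to 16318036 in the Sox9Cre libraries. *Vangl2* itself fell from 277, 406 and 334 normalized counts in the controls to 86.5, 79.8 and 89.6 in the mutants (log2 difference −1.96, limma adjusted p = 0.0318). *Vangl1* transcripts were counted in both groups, at 162, 219 and 113 in the controls and 239, 274 and 242 in the mutants, which lay above all controls (log2 difference 0.65, limma adjusted p = 0.233). Reads of a trapped gene can come from outside the lost part, so these counts alone do not check the allele. *Wnt5a* differed by −0.55 in the Dermo1Cre and −0.12 in the Sox9Cre experiment and passed the test in neither (limma adjusted p = 0.406 and 0.9999), from counts over the whole gene that do not single out the floxed exons. It had 430 to 489 normalized counts in the Dermo1Cre controls and 317, 436 and 230 in the libraries labelled mutant, so that the library labelled mutant replicate 2 stood above the lowest control and below the others. Sox9Cre controls had 426 to 473 and the libraries labelled mutant 442, 362 and 448, of which replicate 2 alone was below all controls. Markers of lung epithelium and lung mesenchyme were expressed in all libraries. Those of kidney and mesonephros and of thyroid each summed to at most 42.3 normalized counts in the *Vangl1/2* libraries. Other tissues summed higher there. Liver and yolk sac endoderm markers had 144 to 214 in controls and 128 to 147 in mutants, and heart markers 1248 to 4007 and 376 to 6180. Kidney and mesonephros markers reached 38.6 in Dermo1Cre controls and 111 in their mutants, and 117 and 154 in the Sox9Cre groups. The summed level of each of the 13 lists of cell type markers overlapped between *Vangl1/2* controls and mutants, but single markers differed. Of 5 smooth muscle markers, 2 lay below all controls and none above, with a median log2 difference of −0.51. Of 8 lung mesenchyme markers, 3 lay above and 1 below. The 3 mesothelium markers tested had a median of 0.64 with overlapping groups. Of all genes tested, 13.6% lay above and 8.68% below. In a bulk sample, fewer cells of a type and less RNA per cell cannot be told apart. On the first principal component of this experiment (51.7% of the variance) control replicate 2 scored among the mutants, which ranged from 15.1 to 21.5, and away from control replicates 1 and 3 at −30.1 and −44.7. Log2 differences between *Vangl1/2* mutants and controls also followed exon length, with a Spearman rho of 0.595 over 14188 genes, against 0.24 in the Dermo1Cre and 0.00974 in the Sox9Cre experiment. Both features touch the 6 genes and are given beside their values.

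Normalized counts are gene counts divided by a size factor of each library within its table. Differences are on the scale of log2 of the normalized count plus 1, mutant minus control. Among the 14303 genes tested in the *Vangl1/2* experiment, the groups did not overlap for 22.3%, with mutants above all controls for 13.6% and below all controls for 8.68%. The share without overlap was 63.5% without control replicate 2 and 15.6% with the trend on exon length removed. At an adjusted p of 0.05, limma called 1 gene there, 0.00699%, which was *Vangl2*. By choice, all 6 genes are in these classes, 5 in the first and 1 in the second, so nothing is read from that count.

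**Figure D1:**
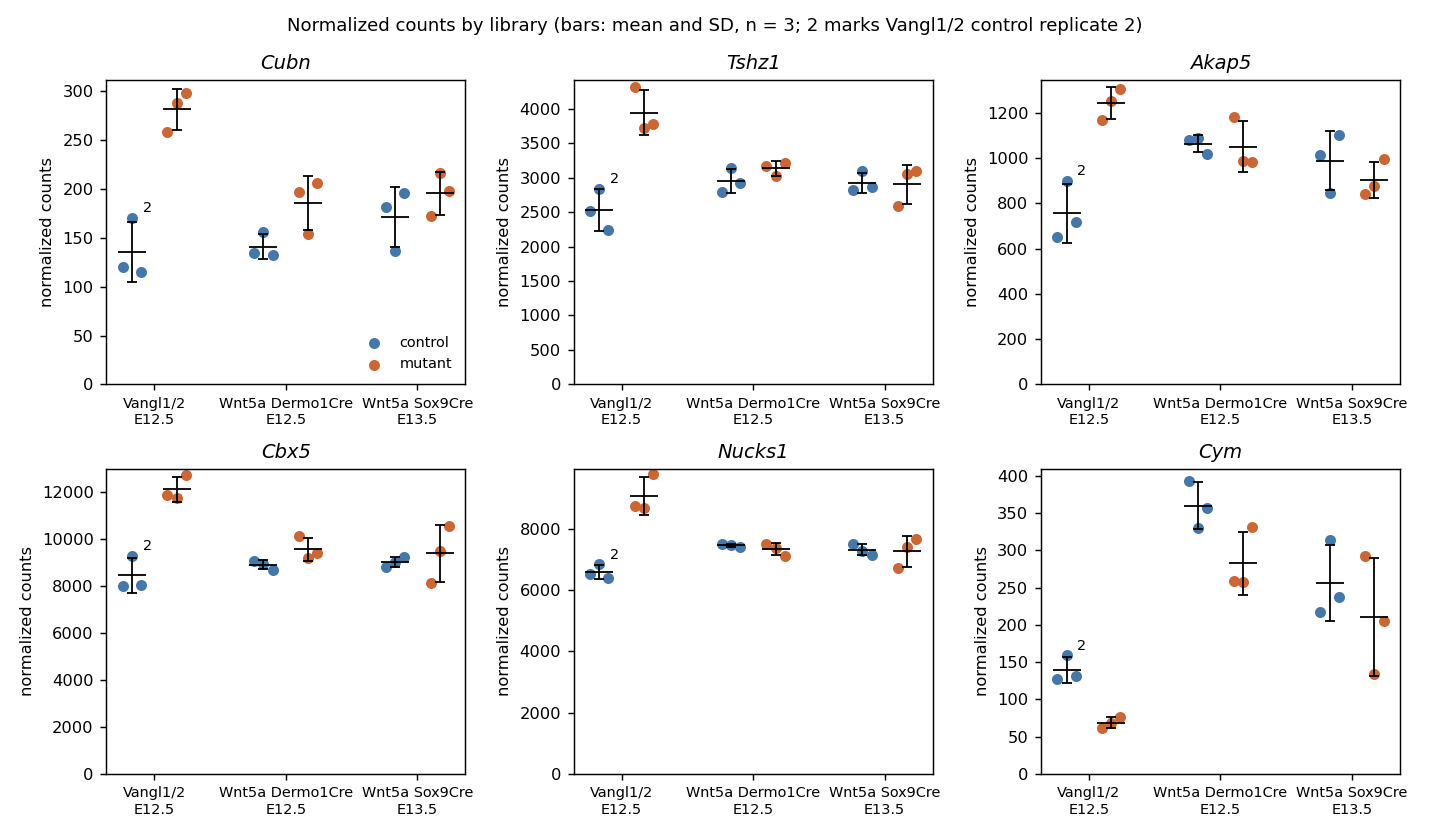
Normalized counts (vertical axes, starting at 0) of the 6 genes in each of the 18 libraries, with controls in blue, mutants in orange, and bars for the mean and SD of 3 libraries. In the *Vangl1/2* experiment every mutant point lies outside the range of the controls, while in the *Wnt5a* experiments the points of the groups overlap for all genes but *Cbx5* in the Dermo1Cre experiment.

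*Cubn* was the gene of the group with the greatest log2 difference in the *Vangl1/2* experiment and the lowest level per kb of exon there. It spans 215.5 kb on the minus strand of chromosome 2 (mm10, chr2:13276338-13491813), and its exons cover 14.9 kb, the longest of the 6. Its 300-base promoter window, from 250 bases before to 50 bases from the annotated start (RefSeq, GRCm38.p6, chr2:13491827-13492126, minus strand), is shown because it is the most AT-rich of the group, among the 5 genes whose windows were read (*Tshz1* was not). It holds 44.3% G and C, against a median of 52.7% over 32851 windows of this length. None of 5 motifs searched on both strands was found in it, so the sequence has no capitals. These were the TATA box TATAAA, the CCAAT box with the letters of its name, the GC box GGGCGG, the AP-1 site TGANTCA and the cyclic AMP response element TGACGTCA. Of all 32851 RefSeq promoter windows, 7.81% hold the AP-1 letters and 1.79% the cyclic AMP response element.
Cubn promoter window: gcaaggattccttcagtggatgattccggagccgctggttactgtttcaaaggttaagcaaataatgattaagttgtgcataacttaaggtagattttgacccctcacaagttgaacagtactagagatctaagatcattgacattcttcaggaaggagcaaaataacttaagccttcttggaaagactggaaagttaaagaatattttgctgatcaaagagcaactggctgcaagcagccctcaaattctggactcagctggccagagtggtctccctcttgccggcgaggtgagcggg

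In the *Vangl1/2* controls *Cubn* had 119.8, 170.5 and 115.6 normalized counts, and in the mutants 258.6, 287.7 and 298.4. The highest control, replicate 2, stayed well below the lowest mutant. This was a log2 difference of 1.07, or 2.10-fold. Genes with exon lengths within 20% of that of *Cubn* had a median difference of 0.40 (quartiles 0.21 and 0.60). After the trend of each library on exon length was removed, the difference of *Cubn* was 0.68, and the 3 controls came to 151.8, 153.2 and 153.0 normalized counts, with the mutants between 235.5 and 250.5. Control replicate 2 was thus no longer apart from the other controls for this gene.

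The proteins that work with cubilin did not share its pattern as a group. Amnionless (*Amn*), which anchors cubilin in the membrane, had at most 4.02 normalized counts in any of the 18 libraries and did not reach the minimum for testing. Megalin (*Lrp2*), the large receptor that carries cubilin into the cell, had 75.4, 224.6 and 54.6 normalized counts in the *Vangl1/2* controls and 229.5, 369.5 and 244.2 in the mutants. Its log2 difference was 1.48, which did not pass the test (limma adjusted p = 0.233), and 1.06 with the length trend removed. For *Lrp2*, unlike *Cubn*, control replicate 2 came within a few counts of the lowest mutant. Of the 8 partner genes tested, *Lrp2* included, 2 lay above all controls in the mutants and none lay below. Of all genes tested, 13.6% lay above and 8.68% below. The median of the 8 was 0.068, beside −0.0093 over all genes. The other of the 2 was *Clcn5*, at 0.75 (limma adjusted p = 0.233), and 0.44 with the length trend removed. In the Dermo1Cre experiment *Clcn5* differed by 0.38, with mutants above all controls (limma adjusted p = 0.314). Of 11 tested genes of cobalamin handling, the pathway of the best-known cubilin cargo, 1 was above and 1 below all controls. The neighbours of *Cubn* on the chromosome did not rise with it. *Rsu1*, a suppressor of Ras-driven growth located 4.9 kb away, was at 1970 ± 173 normalized counts in controls and 1691 ± 34.6 in mutants (SD, n = 3). It lay below all controls in the mutants, with a log2 difference of −0.22 (limma adjusted p = 0.247), and −0.47 with the length trend removed. *Trdmt1*, a tRNA methyltransferase, differed by −0.13 with overlapping groups.

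In the Dermo1Cre experiment *Cubn* had 134.3, 155.6 and 132.8 normalized counts in the controls and 196.6, 153.8 and 206.7 in the mutants. Mutant replicates 1 and 3 lay above every control. The library labelled mutant replicate 2 lay within their range, as it did for *Wnt5a*. The log2 difference was 0.39 (95% interval 0.086 to 0.69, limma p = 0.0171, exact permutation p = 0.2), which did not hold after adjustment over 14277 genes (adjusted p = 0.414). Without the library labelled mutant replicate 2 the difference was 0.52 (limma adjusted p = 0.188), the highest difference and the smallest adjusted p of all alternatives. The difference was 0.34 without mutant replicate 1 and 0.31 without mutant replicate 3. Without control replicates 1, 2 and 3 in turn it was 0.36, 0.46 and 0.35. With the length trend removed it was 0.29, and the groups overlapped. In the Sox9Cre experiment *Cubn* had 181.4, 136.4 and 195.5 normalized counts in the controls and 172.7, 216.3 and 197.8 in the mutants. These groups overlapped, with a difference of 0.20 (95% interval −0.15 to 0.55, limma adjusted p = 0.9999). Single libraries moved this value, to 0.049 without control replicate 2, 0.31 without control replicate 3 and 0.13 without mutant replicate 2. With the length trend removed the Sox9Cre mutants, at 184.7 to 224.9, lay just above the controls, at 137.4 to 182.9, and the difference was 0.25 (limma adjusted p = 0.836).

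*Akap5*, a gene of 9.3 kb on chromosome 12 (chr12:76324891-76334153, plus strand) with 6.82 kb of exons, had 650.7, 899.3 and 715.7 normalized counts in the *Vangl1/2* controls. The mutants had 1169, 1254 and 1306. Control replicate 2 was again the control nearest to the mutants, and the groups stayed apart. On the log2 scale the difference was 0.73 (1.66-fold), and it was 0.58 with the trend on exon length removed, beside a median of 0.13 for genes of like length.

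Among the anchor and enzyme genes around AKAP5, the share above all controls was near that of other genes of their length, and none passed the test. Of all genes with 7000 to 10000 bases of exons, 28.4% lay above all controls, and the lists have median lengths of 8163 and 7651 bases. Of the other 11 A-kinase anchor genes tested in this experiment, 3 lay above all controls in the mutants and none below, with a median log2 difference of 0.36. That median dropped to 0.11 with the length trend removed. The largest difference in the family, chosen after values were seen, was that of *Akap6*, an anchor of striated muscle and nuclear envelope, at 1.59, from 12.4, 60.6 and 15.8 normalized counts in controls and 52.3, 73.9 and 93.6 in mutants, with overlapping groups. Of 15 genes for the enzymes that AKAP5 anchors, 4 were above all controls and none below. The extremes of this list were *Prkcb*, a protein kinase C, at 0.97, the adenylyl cyclase *Adcy9* at 0.71, the kinase A regulatory subunit *Prkar2b* at −0.036 and the catalytic subunit *Prkaca* at −0.063. *Prkcb* had 318.1, 473.4 and 220.7 normalized counts in controls and 606.8, 641.5 and 649.9 in mutants, so that its groups did not overlap. No gene of either list passed the test (smallest limma adjusted p = 0.233).

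In the *Wnt5a* experiments *Akap5* ranged from 1020 to 1090 normalized counts in Dermo1Cre controls and from 983.6 to 1180 in their mutants, and from 847.3 to 1102 and 839.3 to 994.3 in the Sox9Cre groups. The groups overlapped in both. The log2 differences were −0.023 (95% interval −0.19 to 0.14) and −0.12 (−0.36 to 0.12), with limma adjusted p-values of 0.928 and 0.9999. Its chromosomal neighbours *Mthfd1*, a folate enzyme, and *Zbtb25*, a zinc finger gene, differed by −0.093 and −0.062 in the *Vangl1/2* experiment, with overlapping groups.

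*Cbx5* lies on the minus strand of chromosome 15 (chr15:103191544-103239816), with 9.01 kb of exons. Its upstream promoter window (GRCm38.p6, chr15:103239803-103240102, minus strand) is shown for contrast with that of *Cubn*. It holds 60.3% G and C, with 3 GC boxes and 1 CCAAT box in capitals, read on either strand. A GC box is present in 35.7% of all windows, and a CCAAT box in 37.4%. Another window of *Cbx5*, at a downstream start (chr15:103215303-103215602, minus strand), is not shown. That window holds 54.7% G and C, with 1 GC box and no CCAAT box, and contrasts less with that of *Cubn*.
Cbx5 promoter window: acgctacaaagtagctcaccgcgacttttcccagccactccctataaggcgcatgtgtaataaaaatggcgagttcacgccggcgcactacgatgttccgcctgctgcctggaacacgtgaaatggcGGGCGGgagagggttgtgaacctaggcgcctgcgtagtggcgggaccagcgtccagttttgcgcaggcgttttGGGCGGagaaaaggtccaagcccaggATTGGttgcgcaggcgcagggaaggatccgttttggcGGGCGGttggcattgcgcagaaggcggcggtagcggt

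*Cbx5* had 7998, 9284 and 8050 normalized counts in the *Vangl1/2* controls and 11855, 11740 and 12721 in the mutants. Every mutant exceeded the highest control, replicate 2, by at least 1.26-fold. The groups differed by 0.52 on the log2 scale (1.44-fold). This dropped to 0.28 with the length trend removed, and genes of like length had a median of 0.22.

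The groups of the other HP1 genes overlapped. *Cbx1* (HP1-beta) had 2843, 2498 and 3342 normalized counts in controls and 3020, 2802 and 2824 in mutants, and *Cbx3* (HP1-gamma) 3876, 3289 and 5028 against 4054, 3668 and 3860. Their log2 differences were 0.0033 and −0.053 (limma adjusted p = 0.987 and 0.847). Among the 29 other heterochromatin genes tested, 9 lay above all controls and none below, with a median of 0.051. Above all controls were 13.6% of all genes, and 17.6% of those with 5000 to 7000 bases of exons, the class that holds the median length of this list (5270 bases). That class is a rough match, since the 9 include longer genes such as *Atrx*, with 21757 bases. Of genes with 7000 to 10000 bases 28.4% lay above all controls, and of those over 10000 bases 38.4%. With the length trend removed the median of the list was 0.029. *Atrx*, a chromatin remodeler that HP1 recruits, had the largest difference at 0.57, which was 0.074 with the length trend removed, and *Pogz*, which binds HP1, the second largest at 0.39. The smallest were those of the assembly factor *Chaf1b* at −0.22 and the corepressor *Trim28* at −0.11. None of the 29 passed the test. *Hnrnpa1*, a splicing factor gene that starts 545 bases away on the opposite strand, differed by 0.032 with overlapping groups. Its level is uncertain, since near-identical processed copies of this gene could share its reads, which was not tested.

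In the Dermo1Cre experiment *Cbx5* had 9061, 8950 and 8679 normalized counts in the controls and 10114, 9177 and 9398 in the mutants. It was the only one of the 6 genes whose groups did not overlap there, where this held for 15.6% of all genes tested, 7.65% with mutants higher and 7.92% with mutants lower. The lowest mutant was 1.01-fold the highest control. The log2 difference of 0.10 (95% interval 0.00076 to 0.21, limma p = 0.0486, exact permutation p = 0.1, adjusted p = 0.490) became 0.038 with overlapping groups when the length trend was removed. In the Sox9Cre experiment the mutants ranged from 8118 to 10538 normalized counts, wider than the controls at 8796 to 9236 on either side, and the difference was 0.050 (95% interval −0.15 to 0.25).

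*Nucks1*, on the plus strand of chromosome 1 (chr1:131910534-131936321) with 6.78 kb of exons, had 6516, 6850 and 6401 normalized counts in the *Vangl1/2* controls. In the mutants it had 8752, 8693 and 9781. The controls were close together here, and control replicate 2 did not stand apart. The log2 difference was 0.46 (1.38-fold), and 0.31 with the length trend removed, beside a median of 0.13 for genes of like length. *Nucks1* and *Vangl2* lie on the same chromosome, 40.1 Mb apart.

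The recombination and kinase genes listed with *Nucks1* did not share its direction as a group. The 16 other genes of this list had a median log2 difference of −0.067, and −0.16 with the length trend removed. Among them 3 lay above all controls and none below, beside 13.6% and 8.68% of all genes tested. The 3 included *Brca2* at 0.59 and *Brca1* at 0.33, both of which repair double-strand breaks. With the length trend removed these differences were 0.22 and 0.10. Their exons cover 13643 and 8533 bases. Of genes with over 10000 bases 38.4% lay above all controls, and of those with 7000 to 10000 bases 28.4%. The lowest of the list were *Csnk2b*, the regulatory subunit of casein kinase 2, at −0.34 and the cell cycle kinase *Cdk1* at −0.33, with overlapping groups. *Rab7l1*, a trafficking GTPase gene 37.6 kb from *Nucks1* with 1468 bases of exons, was lower in all mutants. It was at 137 ± 9.37 normalized counts in controls and 99.5 ± 6.0 in mutants (SD, n = 3). Its log2 difference was −0.46 (limma adjusted p = 0.233), and −0.19 with the length trend removed. Genes under 1500 bases had a median of −0.36, and 23.1% of them lay below all controls.

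In the *Wnt5a* experiments *Nucks1* was the steadiest gene of the group. It ranged from 7393 to 7507 normalized counts in Dermo1Cre controls and from 7119 to 7518 in their mutants, and the Sox9Cre groups ranged from 7151 to 7506 and from 6717 to 7678. The log2 differences were −0.025 (95% interval −0.11 to 0.059) and −0.012 (−0.15 to 0.12).

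*Tshz1*, on the minus strand of chromosome 18 with 5.85 kb of exons, had 2518, 2839 and 2235 normalized counts in the *Vangl1/2* controls. The mutants had 4317, 3720 and 3784. Mutant replicate 1 was the highest library, whereas it was the lowest mutant for *Cubn* and *Akap5*. The log2 difference was 0.64 (1.56-fold), and 0.54 with the length trend removed, the smallest relative loss among the 5 higher genes. Genes of like length had a median of 0.090.

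The paralog *Tshz3* was the gene nearest to this pattern in the teashirt family. It had 683.7, 977.6 and 644.2 normalized counts in the controls and 1142, 1083 and 1211 in the mutants, with no overlap, a log2 difference of 0.60 and 0.52 with the length trend removed (limma adjusted p = 0.233 for the first). *Tshz2* had 1591, 2137 and 1261 against 2142, 2074 and 1904, where control replicate 2 reached the mutants, and differed by 0.33 (limma adjusted p = 0.30). *Zadh2*, an oxidoreductase gene that lies 357 bases from *Tshz1* on the opposite strand, was at 2436 ± 141 normalized counts in controls and 2767 ± 190 in mutants (SD, n = 3), with no overlap and a difference of 0.18 (limma adjusted p = 0.286). *Tshz1* and *Zadh2* thus both lay above all controls, by unequal amounts.

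In the Dermo1Cre experiment *Tshz1* ranged from 2791 to 3143 normalized counts in controls and 3018 to 3217 in mutants, a log2 difference of 0.087 (95% interval −0.028 to 0.20, limma adjusted p = 0.587). In the Sox9Cre experiment it ranged from 2822 to 3092 in controls and 2582 to 3092 in mutants, a difference of −0.012 (−0.19 to 0.16). Its groups overlapped in both.

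*Cym* was the only gene of the group that was lower in *Vangl1/2* mutants, and the only short one, with 1.24 kb of exons on the minus strand of chromosome 3 (chr3:107211293-107221732). Its promoter window (GRCm38.p6, chr3:107221683-107221982, minus strand) is shown because it was the only one of these 5 genes' windows with a TATA box, TATAAA in capitals, which begins 29 bases before the annotated start. TATAAA is found in 13.6% of all windows on either strand.
Cym promoter window: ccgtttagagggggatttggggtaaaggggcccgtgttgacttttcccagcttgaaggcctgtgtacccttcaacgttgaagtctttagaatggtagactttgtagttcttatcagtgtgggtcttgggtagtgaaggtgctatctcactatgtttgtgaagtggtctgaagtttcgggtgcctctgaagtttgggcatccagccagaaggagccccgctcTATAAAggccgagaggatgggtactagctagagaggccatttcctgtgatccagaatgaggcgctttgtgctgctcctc

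*Cym* had 127.0, 159.4 and 131.4 normalized counts in the *Vangl1/2* controls and 61.4, 68.0 and 75.8 in the mutants. Control replicate 2 had the highest value, so that it lay farther from the mutants than the other controls did. On the log2 scale *Cym* differed by −1.01, a 2.02-fold lower level in mutants, and by −0.72 with the length trend removed. Genes of like length had a median of −0.35.

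*Cym* is a gene of the stomach, and stomach or oesophagus could be dissected with a lung. The 8 markers of oesophagus and stomach summed to 79.5 to 222 normalized counts in the *Vangl1/2* controls and 72.9 to 125 in the mutants. These ranges overlapped. Of the 3 markers of this list that were tested, 1 was lower in all mutants and none was higher. Of all genes tested, 8.68% were lower and 13.6% higher in all mutants. *Ctse*, the gastric protease cathepsin E, was at 97.7 normalized counts in control replicate 3 and between 1.97 and 7.46 in the other 5 libraries, whereas *Cym* was not raised in control replicate 3. The part of these cells in the level of *Cym* was not tested. Of 4 other aspartic protease genes tested, *Ctsd*, the lysosomal cathepsin D, was lower in all mutants, with 3775, 3418 and 3502 normalized counts in controls and 3079, 3291 and 2954 in mutants. Its log2 difference was −0.20 (limma adjusted p = 0.252) and −0.020 with the length trend removed. The neighbours of *Cym*, *Kcna10* and *A630076J17Rik*, had at most 4.99 normalized counts as a mean of any group and were not tested.

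In the Dermo1Cre experiment *Cym* had 392.8, 330.2 and 357.7 normalized counts in the controls and 259.2, 258.0 and 331.5 in the mutants. Mutant replicate 1 and the library labelled mutant replicate 2 lay below every control, and mutant replicate 3 was just above the lowest control. The log2 difference was −0.35 (95% interval −0.61 to −0.10, limma p = 0.0113, exact permutation p = 0.2, adjusted p = 0.375). In the Sox9Cre experiment the values were 217.1, 314.6 and 237.4 in controls and 292.8, 133.8 and 205.0 in mutants. The spread was wide in both groups, and the difference of −0.34 had a 95% interval from −0.94 to 0.26 (limma adjusted p = 0.9999). It was −0.047 without mutant replicate 2, −0.18 without control replicate 2 and −0.61 without mutant replicate 1.

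Over the 6 genes, none passed the test at an adjusted p of 0.05 in the Dermo1Cre experiment, where 2 of 14277 genes (0.014%) did. At an unadjusted p under 0.05, 3 of the 6 passed there, *Cubn* and *Cbx5* higher and *Cym* lower, beside 10.2% of all genes, with 5.42% higher and 4.76% lower. With the length trend removed, *Cym* alone remained at that threshold, and without mutant replicate 1 or mutant replicate 3 the count was 1 of 6. In the Sox9Cre experiment none of the 6 passed at either threshold, beside 0% of 14293 genes at the adjusted and 3.9% at the unadjusted one. The unadjusted count rose to 1 without control replicate 2 and to 2 without mutant replicate 1. Groups overlapped there for all 6 as deposited and did not overlap for 8.78% of all genes, 4.42% with mutants higher and 4.36% lower. For a single gene, 3 libraries against 3 cannot reach an exact permutation p below 0.1, two-sided. The Dermo1Cre groups did not overlap in the summed level of some marker lists. Neuron and neural crest markers summed to 577 to 909 normalized counts in controls and 1033 to 1984 in mutants, with 6 of 7 markers higher in all mutants. Lung epithelium markers summed to 14479 to 15292 against 13603 to 13927, with 3 of 8 lower in all mutants. Liver and yolk sac endoderm markers summed to 142 to 315 against 68.5 to 136, with 2 of the 3 tested lower in all mutants. Of all genes tested in the Dermo1Cre experiment, 7.65% were higher and 7.92% lower in all mutants. Sox9Cre mutants were lower in the summed level of 2 lists. Endothelium markers summed to 11360 to 11553 normalized counts in controls and 10978 to 11295 in mutants, and mesothelium markers to 2650 to 3247 against 2068 to 2621. The part of these cells in the values of *Cubn* and *Cym* was not tested.

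The *Wnt5a* experiments were then pooled, with 6 mutants against 6 controls and the experiment as a term. The pooled log2 difference of *Cubn* was 0.30 (95% interval 0.067 to 0.52, limma p = 0.0150, exact permutation p = 0.04), and that of *Cym* was −0.35 (−0.68 to −0.015, limma p = 0.0418, exact permutation p = 0.075). Both had the sign seen in *Vangl1/2* mutants, and neither held after adjustment over 14228 genes (adjusted p = 0.703 for each). The pooled difference of *Cym* was −0.22 without Sox9Cre mutant replicate 2. None of the 6 genes, and 0% of all genes, passed the adjusted threshold in the pooled fit, while 2 of the 6 and 6.88% of all genes (2.5% higher, 4.39% lower) passed the unadjusted one. That count of 2 was 1 with the length trend removed or with a replicate block, and 1 to 4 when a library was left out (4 without Sox9Cre mutant replicate 1). The pooled intervals of the other 4 genes included 0. They ran from −0.068 to 0.14 for *Tshz1*, from −0.22 to 0.073 for *Akap5*, from −0.034 to 0.19 for *Cbx5* and from −0.090 to 0.053 for *Nucks1*. The difference between the Cre lines was tested as an interaction, which none of the 6 and 0% of all genes passed after adjustment, beside 5.33% of all genes at an unadjusted p under 0.05 and none of the 6. The smallest unadjusted p of the 6 was 0.331, for *Tshz1*.

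**Figure D2:**
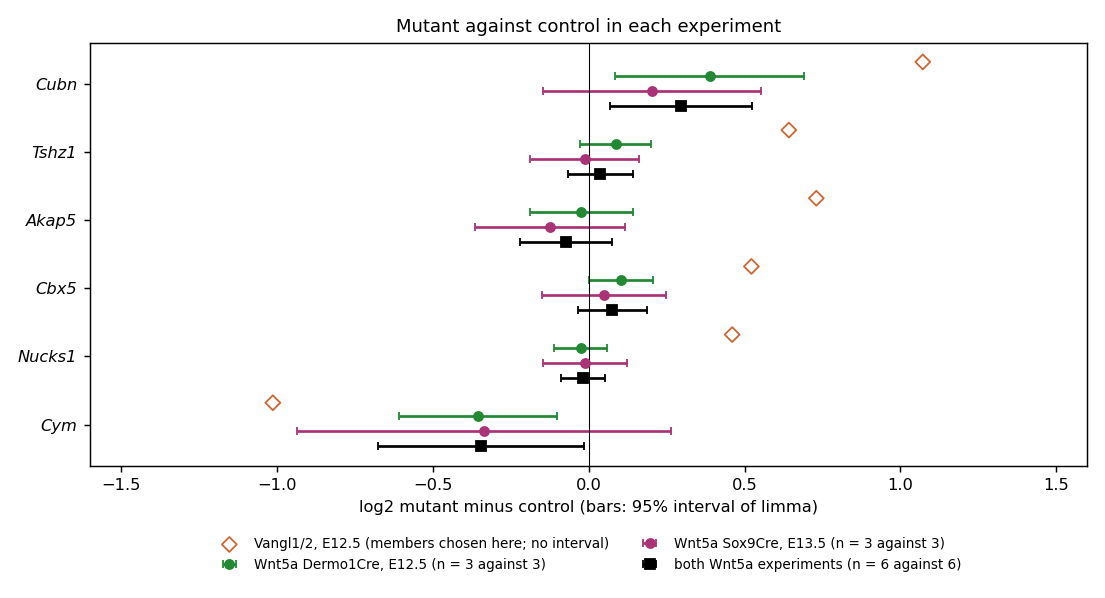
Log2 difference, mutant minus control (horizontal axis), of the 6 genes in the Dermo1Cre experiment, the Sox9Cre experiment and both pooled, with 95% intervals from limma, and in the *Vangl1/2* experiment as open diamonds without an interval. The intervals of *Cubn* and *Cym* in the pooled fit (0.067 to 0.52 and −0.68 to −0.015) leave out 0, and those of the other genes include it. All are from the values as deposited. With the length trend removed the pooled limma p of *Cym* was 0.0536.

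Exon length separated the genes in the same way as direction. The 5 higher genes have 5.85 to 14.9 kb of exons and *Cym* has 1.24 kb. In the *Vangl1/2* experiment, genes with over 10000 bases of exons had a median log2 difference of 0.36 and those under 1500 bases one of −0.36. Of the former, 38.4% lay above all controls, and of the latter 23.1% lay below. Removing the trend on length took the log2 difference of *Cubn* from 1.07 to 0.68, that of *Tshz1* from 0.64 to 0.54 and that of *Akap5* from 0.73 to 0.58. It took *Cbx5* from 0.52 to 0.28, *Nucks1* from 0.46 to 0.31 and *Cym* from −1.01 to −0.72. The groups of all 6 genes stayed apart. The same trend was weaker in the Dermo1Cre experiment, with medians of 0.066 and −0.050 in these length classes, and not seen in the Sox9Cre experiment, at 0.0020 and 0.0022. What the trend on length comes from was not tested.

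**Figure D3:**
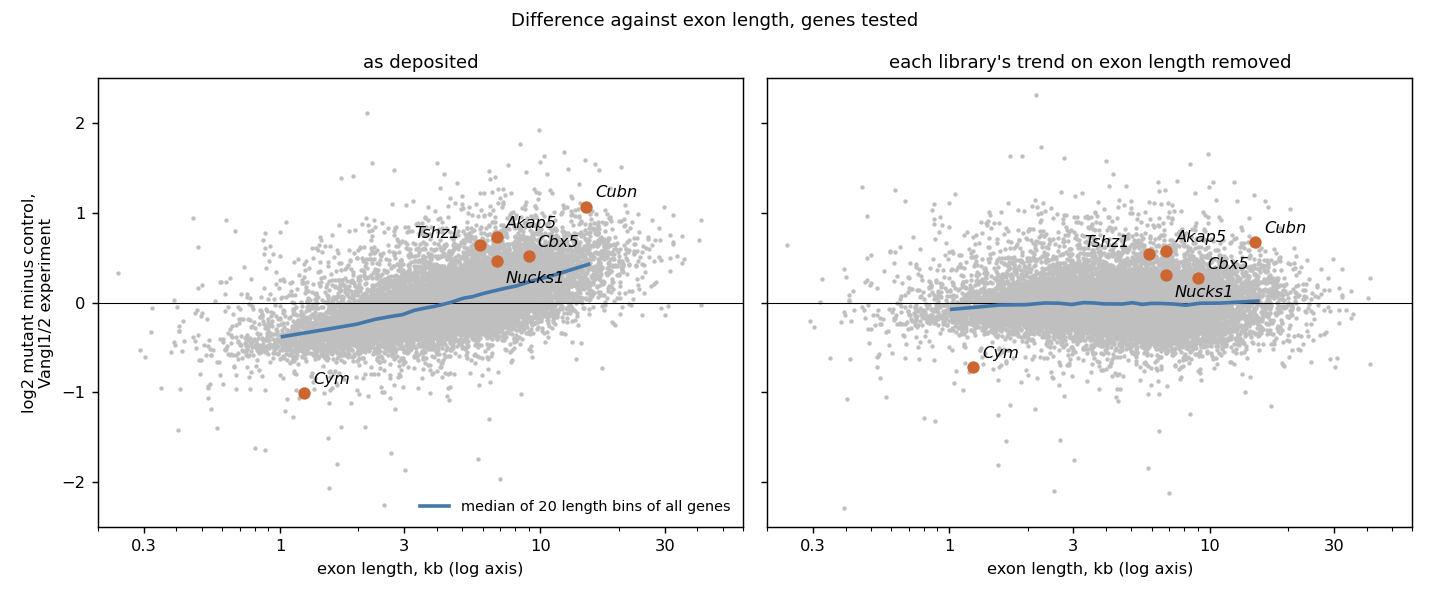
Log2 difference in the *Vangl1/2* experiment (vertical axes) against exon length in kb (horizontal axes, logarithmic) for all genes tested, in grey, with the 6 genes in orange and the median of 20 length bins in blue. As deposited (left) the median climbs with length, and with each library's trend removed (right) it is flat. There *Cubn*, *Tshz1* and *Akap5* lie at 0.54 to 0.68, *Cbx5* at 0.28, *Nucks1* at 0.31 and *Cym* at −0.72.

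In the values as deposited, control replicate 2 took part of the way from the other controls to the mutants for the 5 higher genes. With the mean of control replicates 1 and 3 as 0% and the mean of the mutants as 100%, it stood at 42.5% for *Cubn*, 35.5% for *Tshz1*, 46.1% for *Akap5*, 35.5% for *Cbx5* and 17.4% for *Nucks1*. For *Cym* it stood at −33.0%, on the far side. The median over the 3184 genes whose groups did not overlap was 63.6%, and over the 3704 genes with mutants at least 0.5 from control replicates 1 and 3 it was 91.5%. The 6 genes were picked for a control replicate 2 outside the mutants, so a low share is part of the choice. Without control replicate 2 the differences were 1.25 for *Cubn*, 0.73 for *Tshz1*, 0.86 for *Akap5*, 0.59 for *Cbx5*, 0.49 for *Nucks1* and −0.91 for *Cym*. With the length trend removed, control replicate 2 lay on the far side from the mutants for *Cbx5* and *Nucks1* also. It was at 8687 against 9274 and 9548 in the other controls for *Cbx5*, and at 6536 against 7160 and 7153 for *Nucks1*. For *Tshz1* and *Akap5* it stayed the control nearest to the mutants.

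On the scale of normalized counts per kb of exon, which allows levels of different genes to be set side by side, *Nucks1* and *Cbx5* stood highest in the *Vangl1/2* controls, at 972 ± 34.4 and 938 ± 80.8 (SD, n = 3), and did not differ beyond their spread. *Tshz1* followed at 433 ± 51.6, then *Cym* at 113 ± 14.2 and *Akap5* at 111 ± 18.9, again within their spread, and *Cubn* last at 9.06 ± 2.05. In the mutants *Akap5*, at 182 ± 10.1, stood above *Cym*, at 55.3 ± 5.85. In the Dermo1Cre controls *Cym*, at 291 ± 25.4, stood above *Akap5*, at 156 ± 5.59.

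Levels were also set side by side across experiments, as CPM (each count as a share of the reads of its library that lie on genes), because the tables were normalized separately. Genotype and experiment cannot be told apart in such a comparison, and no test was made. *Akap5* had 33.0 to 48.7 CPM in the *Vangl1/2* controls and 60.8 to 69.5 in the mutants, and 63.9 to 67.4 in the Dermo1Cre controls of the same stage. Here the *Vangl1/2* controls were the libraries that stood low, and the mutants were level with the *Wnt5a* controls. *Nucks1* was alike, with 316 to 371 in the *Vangl1/2* controls, 455 to 521 in the mutants and 463 to 465 in the Dermo1Cre controls. *Tshz1* and *Cbx5* had mutants above and controls below the Dermo1Cre controls, which ranged from 173 to 195 and from 544 to 562. *Cubn* was the gene whose *Vangl1/2* controls, at 5.71 to 9.24, overlapped the Dermo1Cre controls, at 8.32 to 9.63, while the mutants stood above both, at 13.4 to 15.9. *Cym* had the widest gap, with 20.4 to 24.3 in the Dermo1Cre controls and 13.4 to 19.4 in the Sox9Cre controls, against 6.45 to 8.63 in the *Vangl1/2* controls and 3.19 to 4.04 in the mutants. For *Cym* the *Vangl1/2* controls, which kept *Vangl2*, were thus below all *Wnt5a* controls. *Cym* lies 5.0 Mb from *Vangl1*, which both *Vangl1/2* groups carry as a mutant allele, and whether the level goes with that chromosome region was not tested. *Vangl1* itself had 5.61 to 11.9 CPM in the *Vangl1/2* controls and 12.4 to 14.4 in the mutants. It had 28.5 to 31.4 in the Dermo1Cre and 28.3 to 29.4 in the Sox9Cre controls.

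**Figure D4:**
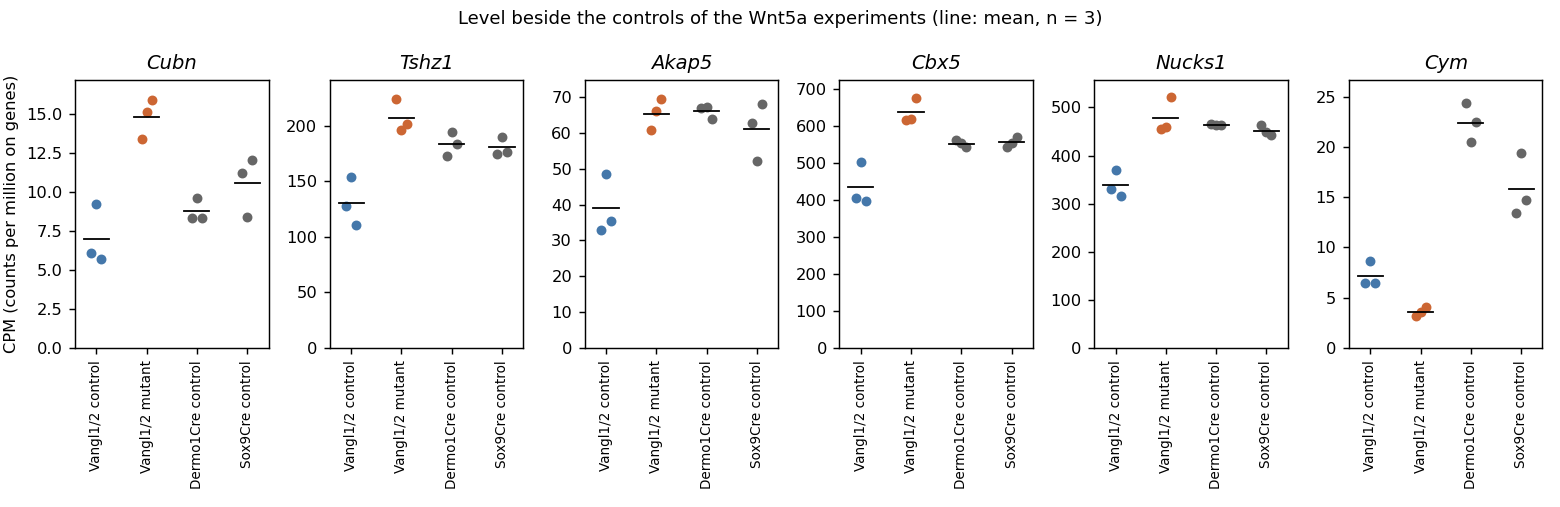
CPM, the count as a share of reads on genes (vertical axes, starting at 0) of the 6 genes in *Vangl1/2* controls (blue) and mutants (orange) and in the controls of the *Wnt5a* experiments (grey), 3 libraries each with a line at the mean. For 5 of the 6 genes all *Vangl1/2* controls lie below all Dermo1Cre controls, and for 3 all *Vangl1/2* mutants lie above them.

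The 8 lists of partner and family genes, without the 6 genes themselves, held 98 genes tested in the *Vangl1/2* experiment. Of these 23 lay above and 2 below all controls, 25.5% in all beside 22.3% of all genes, and none passed the test. In the Dermo1Cre experiment the lists gave 7 above and 6 below of 100 tested, 13% beside 15.6%, and in the Sox9Cre experiment 9 above and 4 below of 99, 13.1% beside 8.78%. No list gene passed the adjusted threshold in either (smallest limma adjusted p = 0.314 and 0.9999), while 11 and 2 had an unadjusted p under 0.05.

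**Figure D5:**
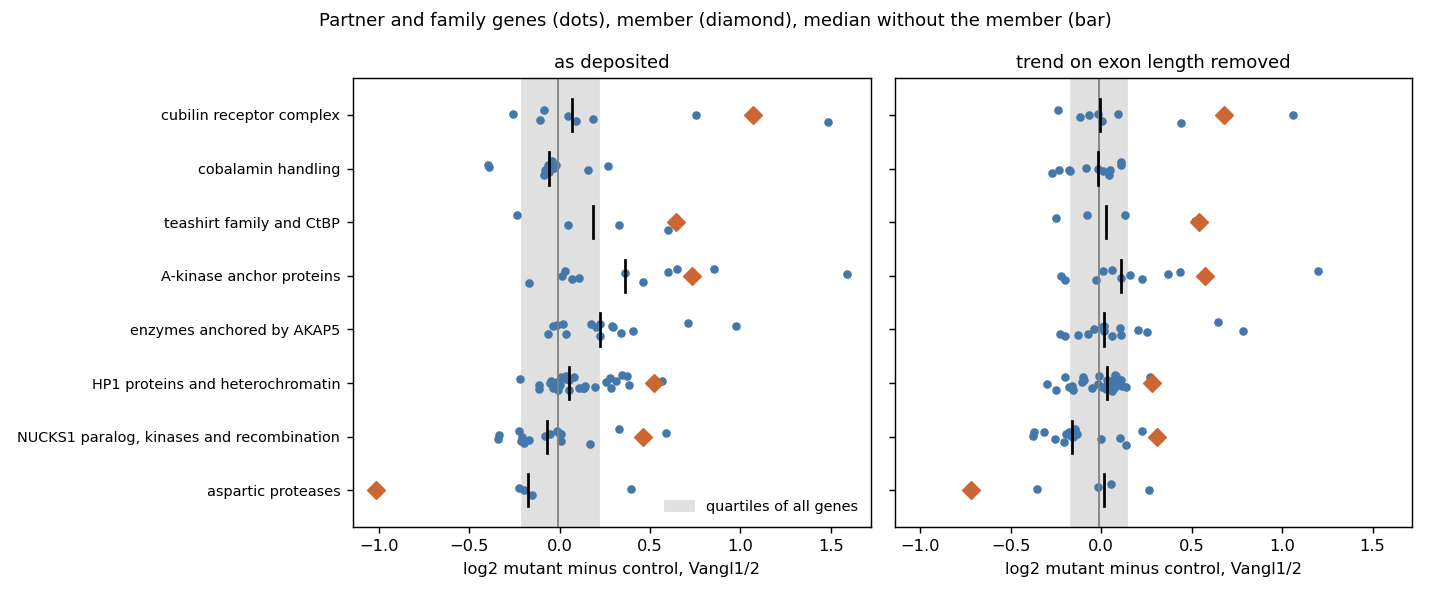
Log2 difference in the *Vangl1/2* experiment (horizontal axes) of the genes tested in each of the 8 lists (dots), with the gene of the group as an orange diamond, the median of the rest as a black bar and the range between the quartiles of all genes in grey. As deposited (left) the medians of the anchor proteins and the anchored enzymes lie at 0.36 and 0.22, and with the trend on exon length removed (right) they lie at 0.11 and 0.017.

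Genes that varied most like each of the 6 were sought by Pearson correlation over the 18 libraries, after subtraction of the mean of each table, among 13977 genes. The libraries share depth and composition and include those that chose the genes, so the values are a description. *Cubn* was nearest to *Plekhm3* (r = 0.93), *Gja1* (0.91), the gap junction gene, and *Mbnl3* (0.91), a splicing regulator. *Tshz1* was nearest to *Spred2* (0.94), an inhibitor of Ras signaling, *Abr* (0.94) and *Arid4a* (0.93). *Akap5* was nearest to *Rnf214* (0.96), *Grb10* (0.94), an adaptor of insulin signaling, and *Kif13a* (0.93). *Cbx5* was nearest to *Ddx6* (0.96), *Tpr* (0.96) and *Qser1* (0.96). *Nucks1* was nearest to *Cbx5* itself (0.93), followed by *Peg10* (0.92) and *Grb10* (0.92). *Cym* had weaker likenesses, to *Prrg2*, *Arhgdig* and *D630039A03Rik* (0.82 each). All 3 have short exons, of 1566 to 2830 bases, while the genes nearest to the other 5 have 4619 to 10921 bases.

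Over the 12 *Wnt5a* libraries, which did not choose the genes, correlations were taken around the mean of each group. Among *Cubn*, *Tshz1*, *Akap5*, *Cbx5* and *Nucks1* all 10 pairs had a positive r, from 0.082 for *Tshz1* and *Akap5* to 0.83 for *Cbx5* and *Nucks1*, with a median of 0.53. All 5 pairs with *Cym* were negative, from −0.63 with *Nucks1* to −0.39 with *Tshz1*. *Cym* thus varied against the other 5 genes, all of which have longer exons. No other pairs of long and short genes were taken as a background, so the signs say nothing particular to these genes. The libraries also share depth and composition, and the Dermo1Cre groups differed along a trend on exon length. Whether the spread within groups follows exon length in either experiment was not tested.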

How the data were processed

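Bulk RNA-Seq was carried out on 18 libraries of mouse embryonic lung. Per the submitters' processing notes, the authors used Trim Galore, HISAT2 (genome build mm10), featureCounts and DESeq2; versions are not given in the sources used here. The authors deposited 3 tables of 23420 genes, each with a signal per library, the gene count scaled by a size factor (0.952 to 1.07), as well as means, fold changes and p-values of their own comparison, which were not used. Between 15945393 and 19814346 reads per library lay on genes, and a level of 10 rests on about as many reads.

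The values plus a pseudocount of 1 were put on the log2 scale. Genes with at least 10 in at least 3 of 6 libraries (6 of 12 when pooled) were tested by limma (version 3.58.1, R 4.3.3) with a mean-variance trend, each experiment alone or, for the *Wnt5a* experiments, together with the experiment as a term. The Benjamini-Hochberg adjustment ran over all genes tested, with a threshold of 0.05. No count test was run. The trend on exon length was a natural spline with 4 degrees of freedom, fitted in each library and removed. Exon lengths and positions came from GENCODE M21 (98.3% of names matched), and promoter windows from RefSeq (GRCm38.p6) for 5 of the 6 genes. Tables were read and drawn with Python (version 3.11.15). The procedure was tested on simulated data.

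The 6 genes, the 8 lists of partner genes and the 13 lists of markers were chosen with earlier results of these data known, and the lists were written from memory. Other genes named are the targeted genes, family paralogs, the extremes of a list, the nearest neighbours and the 3 genes most like each member. A paralog that falls under this rule is not reported here. Same-numbered mutant and control libraries did not deviate together as a rule (correlations from −0.22 to 0.30), so the numbers were not taken as pairs. For *Vangl1/2* replicate 1 the same number gave 0.30 and another number at most −0.0016. For Sox9Cre replicate 1 these were 0.053 and −0.012. In each of the other replicates another number gave a higher correlation. Alternatives were a pseudocount of 5, no filter, upper-quartile scaling, removal of the length trend, a replicate block and leaving out each library.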

Additional observations from a re-analysis of the deposited data

How the results depend on the processing

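In every alternative the 6 genes had *Vangl1/2* mutants apart from controls (6 of 6). The choice of the genes fixed that count in most alternatives. A pseudocount, no filter, a block or a left-out library cannot make groups that lie apart overlap. Only removal of the length trend and upper-quartile scaling could have changed it. In the Dermo1Cre, Sox9Cre, pooled and interaction tests, 0 of 6 passed the adjusted threshold in every alternative. A replicate block left these counts at 6 and 0 (for the interaction, a block chosen after seeing the data) and the log2 differences as they were. It moved the number of all genes called from 1 to 0 in the *Vangl1/2* and from 2 to 16 in the Dermo1Cre experiment. Leaving out *Vangl1/2* control replicate 2 raised the genes called from 1 to 6183 (3930 with the length trend removed as well, an alternative chosen after seeing the data, as was upper-quartile scaling), while leaving out another library gave 0 to 4. Without it the length-adjusted differences were 0.68 for *Cubn*, 0.24 for *Cbx5*, 0.26 for *Nucks1* and −0.52 for *Cym*. Leaving out a library gave 0 to 54 genes called in the Dermo1Cre experiment (54 without mutant replicate 1) and 0 to 13 in the Sox9Cre experiment (13 without mutant replicate 1).

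Small differences changed sign, none of them past a threshold, and the cause was not tested. In the Dermo1Cre experiment *Akap5* was at 0.019 without mutant replicate 2 and 0.021 without mutant replicate 3, and ranged from −0.11 to 0.021 over the left-out libraries. In the Sox9Cre experiment *Tshz1* was at 0.016 with the length trend removed, 0.029 without control replicate 2 and 0.071 without mutant replicate 1 (range −0.059 to 0.071). *Nucks1* was at 0.017 with the length trend removed, 0.0073 without control replicate 1 and 0.044 without mutant replicate 1 (range −0.053 to 0.044), and in the pooled fit at 0.0053 without Sox9Cre mutant replicate 1. *Cbx5* was at −0.038 without Sox9Cre mutant replicate 3 (range −0.038 to 0.15). The planned edgeR, DESeq2 and TMM alternatives were not run, although the values of every library are whole multiples of 1 step. All tests stayed on the normalized values. Depth limits *Amn*, *Ctse* and the neighbours of *Cym*, which lie near or under the minimum.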
